A study of Homo sapiens with 2 samples.

Results

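The regions described here are 4242 pairs of acetylation peaks in FaDu cells whose highest point lay at a different place in each oxygen condition. FaDu is an established squamous carcinoma line of the human pharynx. Chromatin immunoprecipitation with sequencing (ChIP-seq) mapped histone H4 acetylated at lysine 5 (H4K5ac), with 75 bp single-end reads. The normoxia library came from cells in ordinary culture (5% CO2, 37 °C). The hypoxia library came from cells held for 18 h in 1% O2. The labels name no further treatment or genotype for either group, although the culture protocol also mentions METTL4 knockdown. The sample labels name H4K5ac as the target, which is followed here, and the design text names H3K4Ac. Each condition had 1 library and 1 list of peaks, so the conditions could not be tested against each other, and intervals below cover counting error over pairs only. Pairs of 1 normoxia and 1 hypoxia peak were taken on chromosomes 1 to 22 where the peaks shared at least 1 bp and neither overlapped another peak of the other list. This gave 68386 pairs. A summit is the position of highest read coverage in a peak. Pairs were chosen by this measured position, and a pair was called displaced when its summits were at least 300 bp apart. Displaced pairs made up 6.20% of all pairs (95% exact binomial interval 6.02 to 6.39%). They held 3.59% of the 118028 normoxia peaks and 1.67% of the 254228 hypoxia peaks on these chromosomes. The displacement itself is therefore a description. Coincident pairs, with summits within 50 bp, numbered 30010 and were the comparison, and 34134 pairs lay between.

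H4K5ac is an acetyl mark on the tail of histone H4 that is laid down by acetyltransferases such as those of the NuA4 complex and bound by bromodomain proteins of the BET family. At active genes the start of transcription lies in a stretch depleted of nucleosomes, and acetylated nucleosomes flank it on both sides. Read coverage of such a mark therefore often has a peak upstream and another downstream of the start, with a dip between them. A peak caller that joins both into 1 region reports the higher one as the summit.

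Promoter sequences of 6 genes show displaced summits that straddle a gene start, as they did in 473 of 906 displaced pairs at gene starts. Each line below is the 250 bases before a RefSeq start (GRCh38.p14, read in the direction of transcription), and the capitals mark the 21 bases centred on the summit of 1 library. The other library had its summit downstream of the start, outside the printed stretch. They are the 3 pairs per library with the highest lower fold among those with a summit in this stretch and no annotated gene over it, a rule set after the values were seen.
SECISBP2 (chr9:89318250-89318499, + strand): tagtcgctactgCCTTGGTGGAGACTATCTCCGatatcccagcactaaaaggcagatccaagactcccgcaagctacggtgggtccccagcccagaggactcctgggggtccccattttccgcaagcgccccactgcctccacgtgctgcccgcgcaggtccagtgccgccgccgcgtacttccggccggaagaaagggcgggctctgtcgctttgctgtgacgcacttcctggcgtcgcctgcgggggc
CCNI (chr4:77075990-77076239, - strand): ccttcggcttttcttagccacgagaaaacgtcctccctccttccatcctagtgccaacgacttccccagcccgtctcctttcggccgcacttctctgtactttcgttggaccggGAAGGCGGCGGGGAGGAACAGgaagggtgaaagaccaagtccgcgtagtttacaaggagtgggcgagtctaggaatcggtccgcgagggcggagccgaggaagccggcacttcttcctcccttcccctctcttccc
DNAH10 (chr12:123762051-123762300, + strand): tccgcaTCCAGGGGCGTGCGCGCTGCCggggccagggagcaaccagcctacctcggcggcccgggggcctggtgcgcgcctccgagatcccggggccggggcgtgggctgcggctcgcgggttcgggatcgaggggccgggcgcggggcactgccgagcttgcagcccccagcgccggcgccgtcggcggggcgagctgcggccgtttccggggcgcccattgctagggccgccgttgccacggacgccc
SGCB (chr4:52038300-52038549, - strand): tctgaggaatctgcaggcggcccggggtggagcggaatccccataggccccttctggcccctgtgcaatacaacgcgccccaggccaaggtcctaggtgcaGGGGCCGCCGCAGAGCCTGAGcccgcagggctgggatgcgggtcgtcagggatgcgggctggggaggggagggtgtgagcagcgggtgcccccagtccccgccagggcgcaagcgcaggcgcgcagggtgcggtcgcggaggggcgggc
MON1B (chr16:77190940-77191189, + strand): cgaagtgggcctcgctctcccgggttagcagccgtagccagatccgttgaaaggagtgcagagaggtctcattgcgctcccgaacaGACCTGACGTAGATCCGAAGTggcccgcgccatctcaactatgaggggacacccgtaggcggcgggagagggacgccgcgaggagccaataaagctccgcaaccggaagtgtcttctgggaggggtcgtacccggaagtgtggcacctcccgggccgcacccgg
PRDM2 (chr1:13699938-13700187, + strand): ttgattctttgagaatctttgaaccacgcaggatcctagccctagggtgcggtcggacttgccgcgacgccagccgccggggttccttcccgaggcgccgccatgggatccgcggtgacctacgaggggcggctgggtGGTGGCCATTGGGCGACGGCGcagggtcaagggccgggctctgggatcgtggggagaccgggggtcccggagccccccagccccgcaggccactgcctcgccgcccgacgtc
In the first 3, the normoxia summit lay upstream: at SECISBP2, a selenoprotein synthesis factor gene, 228 bases before the start, against a hypoxia summit 153 bases after it. The cyclin I gene CCNI had its normoxia summit 126 bases before and its hypoxia summit 336 bases after the start. DNAH10, an axonemal dynein gene, had them 234 bases before and 121 after. In the last 3, the hypoxia summit lay upstream. SGCB, the beta-sarcoglycan gene of the dystrophin-associated complex, had its hypoxia summit 139 bases before and its normoxia summit 303 bases after the start. MON1B, which encodes a subunit of a Rab7-activating complex, had them 154 before and 282 after, and PRDM2, a histone methyltransferase gene, 102 before and 278 after. All 6 stretches were rich in CpG, with 20 to 38 CpG dinucleotides and a GC content of 60.0 to 80.0%.

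The libraries differed in list length, with 120033 normoxia and 258195 hypoxia peaks. The narrowest peaks were 245 and 215 bp wide. The reads covering each summit were solved from the deposited fold and p-value and came out whole, within 0.02, for 100% of the solved peaks. Displaced pairs had a median of 28 reads at the normoxia summit (95% exact Poisson interval for such a count 18.6 to 40.5) and 36 at the hypoxia summit (25.2 to 49.8). In coincident pairs the medians were 31 and 38. The height of either library at the other library's summit was not analysed here. Of 6 squamous epithelial genes, 5 had a normoxia and 6 a hypoxia peak at a gene end, and of 6 genes of other lineages 1 and 4 did, so a peak at a gene end did not set these lineages apart in hypoxia. Such peaks were common, with a one-to-one pair at an end of 11517 of 19126 protein-coding genes. The share of all genes with a peak in each list was not computed, so these counts cannot be set against it.

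**Figure D1:**
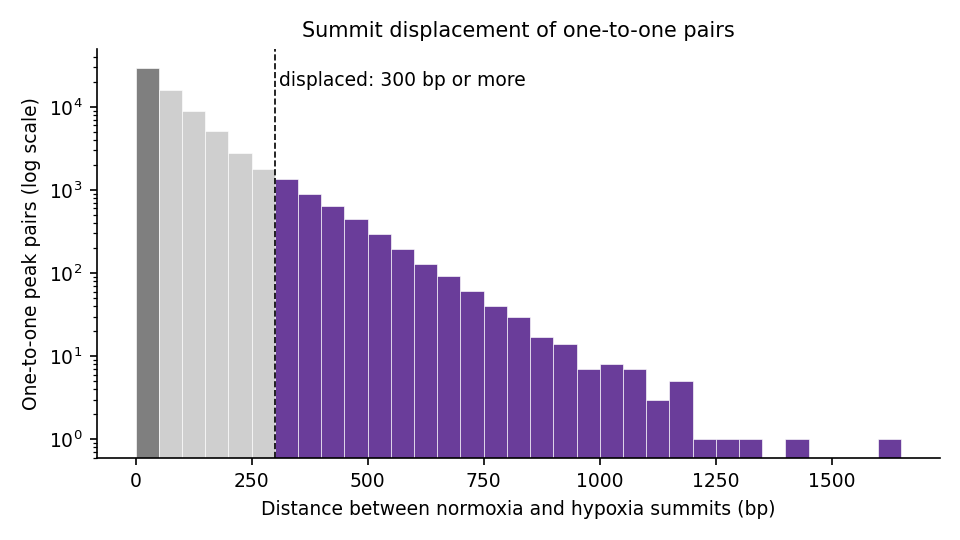
Number of one-to-one peak pairs (log axis) by the distance between their normoxia and hypoxia summits, in steps of 50 bp, with displaced pairs in purple and pairs under 50 bp apart in dark grey. Numbers fall steadily across the 300 bp limit, with 902 pairs at 500 bp or more and 28 at 1000 bp or more.

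Displaced pairs were the tail of a smooth distribution. Their median displacement was 391 bp, with a middle range (quartiles) of 336 to 480 bp. In all, 902 pairs were displaced by at least 500 bp and 28 by at least 1000 bp. The limit of 300 bp fell in the slope of the distribution: 193 pairs lay no more than 5 bp beyond it and 152 pairs no more than 5 bp short of it. Just inside the limit, the highest lower folds belonged to a pair between genes, 43.3 kb from the nearest of them (chr6:49386497-49387437, 300 bp apart, folds of 9.57 in normoxia and 14.8 in hypoxia), to IFT70A (300 bp, 9.51 and 10.6) and to a pair within GPRC6A (304 bp, 8.84 and 14.5). Just outside it were pairs within UBE2E2 (297 bp, 8.91 and 13.7), at NSUN7 (296 bp, 7.80 and 11.03) and at MTREX (296 bp, 7.64 and 7.65). Folds are the authors' values over the background of each library, so they do not measure a change between libraries. The largest displacement, 1600 bp, was at chr11:69929931-69931924, which lay 35.1 kb from the nearest protein-coding gene. It had folds of only 1.70 and 2.34, but 77 and 158 reads at the summits. Without chromosome 11 from 69 to 72 Mb, where this pair lies, 4202 displaced pairs remained.

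The displacement showed no preferred side along the chromosome beyond counting error. The hypoxia summit lay at the higher coordinate in 49.2% of displaced pairs (47.6 to 50.7%), against 50.8% of coincident pairs (50.2 to 51.3%). The displaced share of pairs ranged from 5.49% on chromosome 10 to 7.54% on chromosome 15 (191 of 2532, 6.54 to 8.64%). On 21 of the 22 chromosomes the interval held the share over all of them, chromosome 15 being the exception.

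Displaced pairs fell into classes by where each summit lay in the other peak. In 1910 pairs (45.0%) both summits lay inside the other peak, so a broad acetylated region was found in both conditions with its maximum in different parts. These regions were wide and well covered, with medians of 1109 bp and 58 reads in normoxia and 1073 bp and 82 reads in hypoxia. In 938 pairs (22.1%) only the normoxia summit was inside the other peak, a narrow normoxia peak (median 310 bp) in a wider hypoxia peak (774 bp). In 467 pairs (11.01%) the reverse held, with medians of 756 bp in normoxia and 354 bp in hypoxia. In the last 927 pairs (21.9%) neither summit lay in the other peak: they were neighbouring narrow peaks (330 and 415 bp) that shared a median of 74 bp, with 16 and 20 reads at the summits. Such pairs meet the overlap rule but hold the maxima of separate places. Of pairs with both summits shared, 75.0% (73.0 to 76.9%) reached 10 on the −log10 q-value scale in each list, called strong here. Of pairs with neither, 0.755% (0.304 to 1.55%) did. Over all displaced pairs 35.3% were strong in both lists, against 40.2% of coincident pairs and 31.3% of all pairs.

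Displaced pairs covered wider regions than coincident pairs. The joined region of both peaks had a median width of 924 bp (quartiles 733 and 1209 bp) against 525 bp (384 and 801 bp). A pair cannot be displaced by more than its joined width, so this difference is partly set by the rule. The displaced share rose from 0.292% of pairs (0.233 to 0.361%) under 500 bp to 14.5% (13.6 to 15.5%) at 900 to 1099 bp and 28.1% (22.4 to 34.4%) at 2000 bp or more. Which library had the wider peak also differed between the classes. The normoxia peak was the wider in 46.9% of displaced pairs (45.4 to 48.5%) and in 60.6% of coincident pairs (60.1 to 61.2%).

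**Figure D2:**
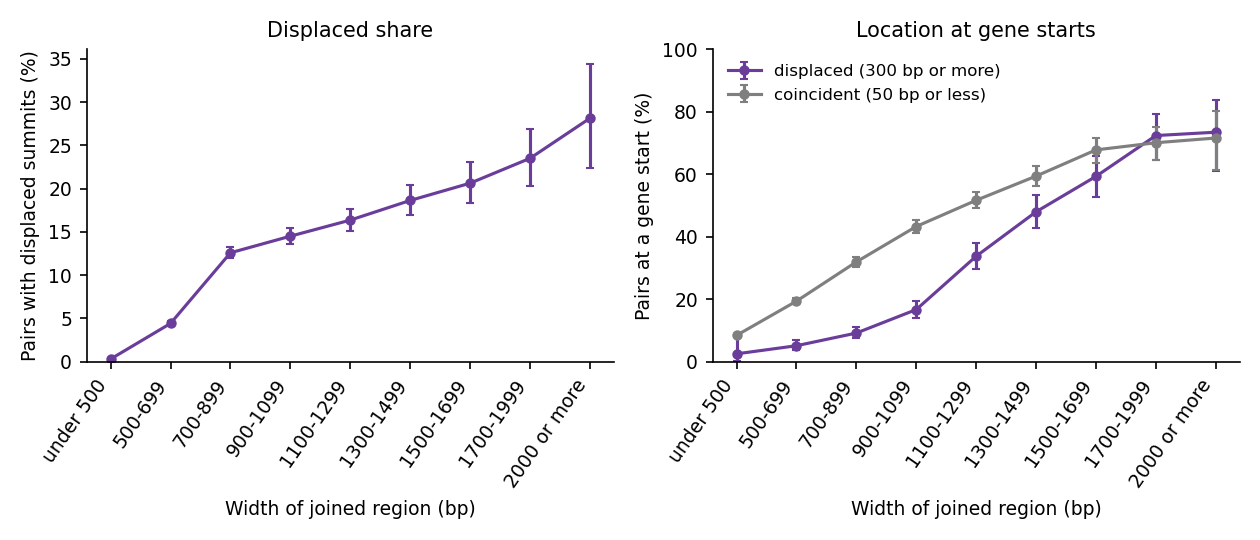
Share of one-to-one pairs with displaced summits (left) and share of pairs within 1000 bp of a gene start (right, displaced in purple, coincident in grey) by width of the joined region, with 95% exact binomial intervals. The displaced share reaches 28.1% in the widest class, and below 1700 bp displaced pairs lie at gene starts less often than coincident pairs of like width.

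Among regions of like width, those with fewer reads were displaced more often. At 900 to 1099 bp, 28.4% of pairs (26.1 to 30.8%) with 10 to 29 reads at the lower summit were displaced, and 4.67% (3.62 to 5.93%) of those with 87 to 373 reads. At 1400 to 1999 bp the shares were 34.2% (30.7 to 37.9%) with 11 to 64 reads and 11.4% (9.13 to 14.05%) with 133 to 394 reads. With pairs sorted by reads into 4 groups, the share went down at each step in all 5 width classes examined. The best covered pairs of the last class still held 78 displaced pairs. How far counting error at these depths placed the summits was not tested.

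**Figure D3:**
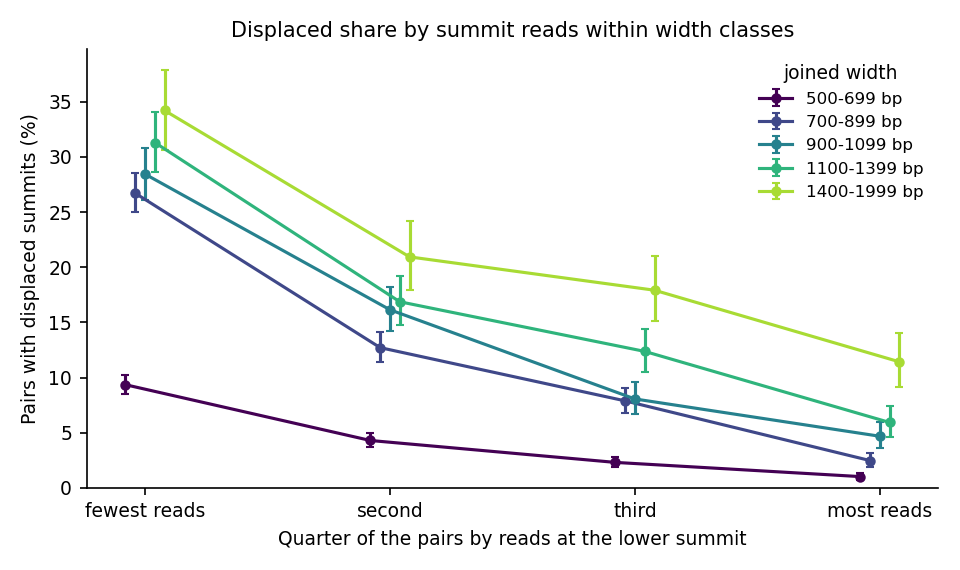
Share of pairs with displaced summits for 4 groups of pairs sorted by the reads at the lower of both summits, for 5 classes of joined width, with 95% exact binomial intervals. In every width class the share is lowest in the group with most reads, for example 4.67% at 900 to 1099 bp.

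Displaced pairs were found at gene starts about as often as coincident pairs, although they were wider. A pair was counted at a gene start when its joined region came within 1000 bp of a protein-coding start in the RefSeq promoter table. That table gave 21156 starts of 15101 genes on 21 chromosomes, and chromosome 8 was not used for starts. Of 3965 displaced pairs, 906 (22.8%, 21.6 to 24.2%) lay at a gene start, against 22.6% (22.1 to 23.1%) of coincident pairs and 18.7% of all pairs. At either end of a protein-coding gene lay 25.1% of displaced pairs (23.8 to 26.4%), 24.3% of coincident pairs (23.9 to 24.8%) and 20.3% of all pairs. Few were at a transcript end away from any start, 1.74% (1.36 to 2.20%) of displaced and 1.47% (1.33 to 1.61%) of coincident pairs.

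Regions of like width gave another picture. At 700 to 899 bp, 9.12% of displaced pairs (7.49 to 10.98%) and 31.9% of coincident pairs (30.4 to 33.4%) lay at a gene start. At 1100 to 1299 bp the shares were 33.7% (29.7 to 38.0%) and 51.6% (49.0 to 54.2%). From 1700 bp upward they met, at 72.4% (64.5 to 79.3%) and 70.1% (64.6 to 75.2%) for 1700 to 1999 bp. When coincident pairs were weighted to the widths of displaced pairs, their gene-start share was 41.2%, so displaced minus coincident pairs came to −18.3 percentage points (symmetric 95% interval −19.9 to −16.8). The gap was much smaller when reads were matched too. Weighting to both width and reads at the lower summit gave 25.5%, a difference of −2.68 points (−4.28 to −1.09). At gene ends the differences were −19.1 points by width and −2.31 points by width and reads. Pairs inside the span of a protein-coding gene made up 53.5% of displaced and 57.4% of coincident pairs. Away from gene starts the displaced pairs were narrower and shallower, with a median joined width of 846 bp and 21 reads at the lower summit, against 1316 bp and 68 reads at gene starts.

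At gene starts, displaced summits most often lay on opposite sides of the start. This held for 473 of 906 pairs (52.2%, 48.9 to 55.5%), and for 408 of the 717 pairs strong in both lists (56.9%, 53.2 to 60.6%). Both summits were downstream in 304 pairs and both upstream in 128. The nearest start was the outer 5′ end of its gene in 603 pairs, of which 302 straddled it (50.1%, 46.0 to 54.1%), and an internal start in 303, of which 171 did (56.4%, 50.6 to 62.1%). Over all gene-start pairs with unequal summits, 6.42% straddled the start. Summits within 50 bp of each other can seldom straddle a start, so the contrast with coincident pairs follows from the rule. Of gene-start pairs at least 200 bp but under 300 bp apart, 20.7% (17.3 to 24.5%) did. In displaced pairs whose region held starts on both strands, 61 of 66 straddled the nearest start (92.4%, 83.2 to 97.5%), against 412 of 840 (49.0%, 45.6 to 52.5%) in the others. The others include pairs whose start lies outside the joined region, up to 1000 bp away, where summits cannot straddle it. This contrast is therefore partly set by the definitions. Starts on both strands were found in 7.28% of displaced gene-start pairs and in 7.17% of coincident ones weighted to the same widths, a difference of 0.11 points (−1.86 to 2.09).

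Summits of both libraries were found in similar shares in the zones flanking the start, with few at the start itself and many farther out. In displaced pairs 26.2% of normoxia and 26.2% of hypoxia summits lay 101 to 400 bases upstream. A further 30.8% of normoxia and 33.1% of hypoxia summits lay 100 to 399 bases downstream. In the 200 bases around the start lay only 4.42% (3.17 to 5.96%) of normoxia summits and 7.17% (5.58 to 9.05%) of hypoxia summits. The start was taken nearest to the midpoint of summits at least 300 bp apart, so the low shares in displaced pairs are partly set by the rule. These 200 bases held 6.66% of normoxia and 6.55% of hypoxia summits of coincident pairs. In coincident pairs 51.4% of normoxia summits were in the downstream zone and 17.2% in the upstream zone. Each flanking zone is no wider than the smallest displacement, so the summits of a displaced pair can never share one, and the contrast with coincident pairs in these 2 zones is partly set by the rule.

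**Figure D4:**
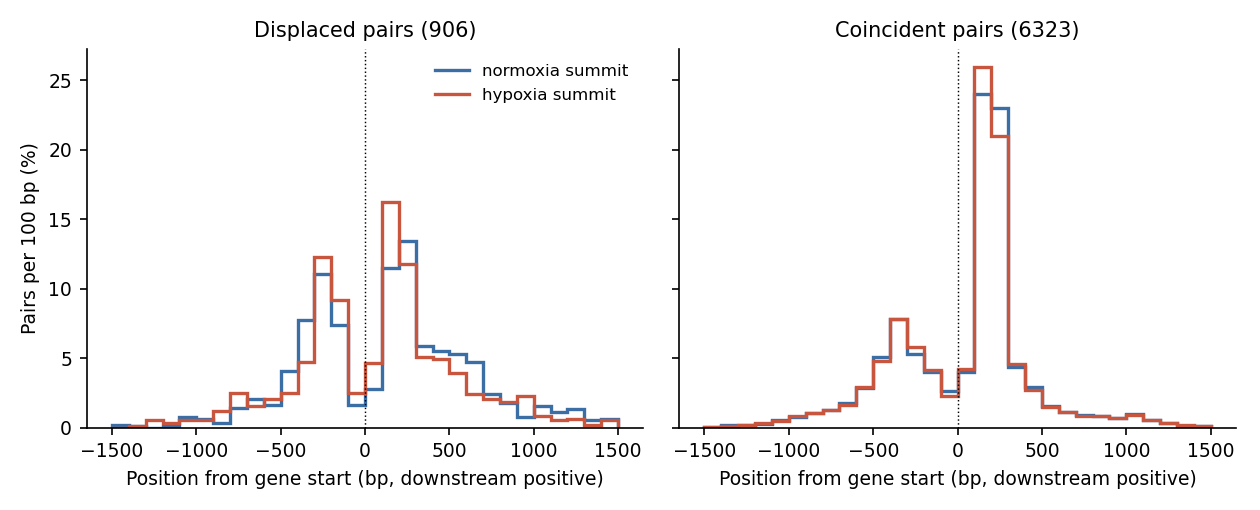
Position of normoxia (blue) and hypoxia (red) summits relative to the nearest protein-coding start, in steps of 100 bp, for displaced pairs (left) and coincident pairs (right) at gene starts, as a share of pairs. Both libraries have an upstream and a downstream hump with a dip at the start (26.2% and 30.8% of normoxia summits in the upstream and downstream zones for displaced pairs, 17.2% and 51.4% for coincident pairs). The balance of the humps, and the dip in displaced pairs, are partly set by the choice of pairs and of the start nearest to their midpoint.

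At gene starts, hypoxia summits lay to either side of the normoxia summit along the gene, slightly more often upstream. Where the summits straddled the start, hypoxia was the downstream one in 231 pairs and the upstream one in 242 (48.8% downstream, 44.2 to 53.4%). Over all 906 gene-start displaced pairs the hypoxia summit was downstream in 408 (45.0%, 41.8 to 48.3%). The share over all gene-start pairs with unequal summits was 46.2%, inside that interval, so displaced pairs did not stand apart. With both summits downstream, the hypoxia summit was the nearer to the start in 183 of 304 pairs (60.2%, 54.5 to 65.7%), close to the 59.1% over all gene-start pairs so placed. With both summits upstream it was the nearer in 56 of 128 (43.8%, 35.002 to 52.8%), against 55.8% over all such pairs. In gene bodies away from starts, the hypoxia summit was downstream in 594 of 1129 displaced pairs (52.6%, 49.7 to 55.6%) and in 49.9% of coincident pairs (48.9 to 50.99%).

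**Figure D5:**
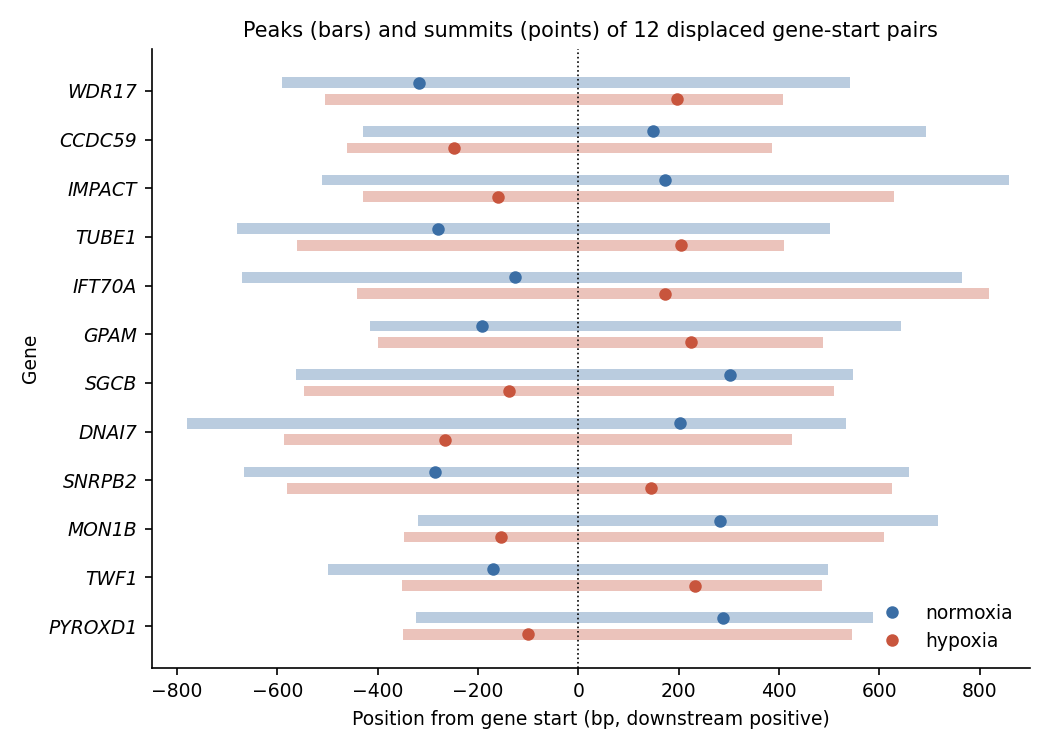
Normoxia (blue) and hypoxia (red) peaks as bars and their summits as points, relative to the gene start, for the 12 displaced gene-start pairs strong in both lists with the highest lower fold. In each pair both peaks cross the start and the summits lie on opposite sides of it, with 6 hypoxia summits downstream and 6 upstream.

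The 12 displaced gene-start pairs with the highest folds show the pattern gene by gene. All 12 had their summits on opposite sides of the start, 101 to 318 bases upstream and 144 to 303 bases downstream, and 53 to 240 reads at each summit. For 9 of the 12 this start is the outer 5′ end of the gene. For CCDC59, GPAM and PYROXD1 it is an internal start, and both summits lay inside the gene. In 6 of them hypoxia had the downstream summit. WDR17 (chr4:176065251-176066383), which encodes a WD repeat protein, had its normoxia summit 318 bases upstream (fold 10.5, 53 reads) and its hypoxia summit 196 bases downstream (fold 11.3, 61 reads). At TUBE1 (chr6:112086980-112088162), the epsilon-tubulin gene of centrioles, the summits were 280 bases upstream in normoxia (9.86, 83 reads) and 204 downstream in hypoxia (12.7, 81 reads). This region also holds the start of FAM229B on the other strand, so upstream of the 1 gene is downstream of the other. IFT70A (chr2:177617923-177619413), an intraflagellar transport gene of cilia, had them 127 upstream (9.51) and 173 downstream (10.6). GPAM (chr10:112183121-112184180), which encodes a mitochondrial acyltransferase of triglyceride synthesis, had them 192 upstream (9.23) and 224 downstream (11.5), around a start that is internal to the gene span. The spliceosomal gene SNRPB2 (chr20:16729360-16730685) had them 285 upstream (8.94) and 144 downstream (12.6). TWF1 (chr12:43805820-43806815), the actin-binding twinfilin gene, had them 171 upstream (8.88) and 233 downstream (13.3). In these 6 genes the upstream summit was thus the normoxia one.

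The other 6 had the opposite order. IMPACT (chr18:24426160-24427528), a regulator of the stress kinase GCN2, had its normoxia summit 173 bases downstream (fold 9.97, 157 reads) and its hypoxia summit 160 bases upstream (12.4, 240 reads). CCDC59 (chr12:82357694-82358848), whose region also holds the start of METTL25 on the other strand, had them 149 downstream (10.3) and 247 upstream (12.7) of an internal start. At SGCB (chr4:52037752-52038861), shown above, the folds were 9.21 and 10.5, with 54 and 81 reads. DNAI7 (chr12:25194626-25195941), an axonemal dynein gene, had its summits 203 downstream in normoxia (8.97) and 265 upstream in hypoxia (10.2). MON1B (chr16:77190842-77191908) had folds of 8.92 and 10.1, and PYROXD1 (chr12:21437566-21438503), an oxidoreductase gene, had its summits 288 downstream (8.88) and 101 upstream (10.7) of an internal start. No single order of flanks was therefore shared by the 12 genes.

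The largest displacements among strong pairs were found over broad regions. WSB2 (chr12:118060451-118063200), which encodes a SOCS box protein, was displaced by 1447 bp, from 1025 bases upstream of an internal start in normoxia to 422 downstream in hypoxia, or from 30 upstream to 1417 downstream of the outer 5′ end. TCF12 (chr15:56917997-56920140), a basic helix-loop-helix factor gene, was displaced by 1340 bp the other way, from 589 downstream to 751 upstream of an internal start. Both its summits lay inside the gene, 1586 and 246 bases from its outer 5′ end. The glutamine transporter gene SLC38A1 (chr12:46267158-46270088) had summits 570 (normoxia) and 1822 (hypoxia) bases upstream of an internal start. They lay on either side of the outer 5′ end of the gene, 486 bases downstream and 766 upstream of it. IRX4 (chr5:1881579-1884186), a homeobox gene, went from 624 upstream to 586 downstream of an internal start (1210 bp), with both summits inside the gene. INPP4B (chr4:142845614-142847387), a phosphoinositide phosphatase gene, went from 700 upstream to 475 downstream of an internal start (1175 bp) and straddled the outer 5′ end too. PRR3 (chr6:30555306-30557756) went from 454 upstream to 703 downstream of its outer start (1157 bp). This region holds starts on both strands and lies at an end of GNL1 too, so the direction holds for PRR3 only. The remaining 2 had no start in the table nearby. They lay within SKI, a repressor of TGF-beta signalling (chr1:2254922-2256783, 1196 bp), and within RASSF10 (chr11:13009309-13010995, 1184 bp). Folds in these 8 pairs were moderate, for instance 4.26 and 4.92 at WSB2 and 6.04 and 6.12 at TCF12.

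In the gene lists of hypoxia, epithelial-mesenchymal transition and acetylation, 10.3%, 4% and 8.70% of the genes had a displaced pair at a gene end. Of all 19126 protein-coding genes on chromosomes 1 to 22, 1261 (6.59%) did, or 10.9% of the 11517 genes with any one-to-one pair at a gene end. Among 29 hypoxia-response genes 3 had a displaced pair there. EGLN1, the prolyl hydroxylase that marks hypoxia-inducible factor for degradation, had its normoxia summit 137 bases downstream of the start (fold 4.35) and its hypoxia summit 245 bases upstream (7.58). VEGFA, the angiogenic growth factor gene, had summits 1892 bp (normoxia, 3.85) and 1550 bp (hypoxia, 3.93) inside the low-coordinate end of its span (chr6:43770681-43772757). GPI, a glycolytic isomerase gene, had them 680 and 1017 bp outside its low-coordinate end, with folds of 2.80 and 3.62, and was not strong in both lists. Each of the 3 thus shows another arrangement.

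Of 25 mesenchymal genes 1 had a displaced pair, the EMT transcription factor gene TWIST2 (chr2:238847128-238849675). Its normoxia summit lay 436 bases downstream of the start (fold 5.62) and its hypoxia summit 401 upstream (5.90). Of 25 epithelial genes 3 did. CDH1, which encodes E-cadherin, had its normoxia summit 895 bp inside the low-coordinate end of the gene (3.89, 73 reads) and its hypoxia summit 239 bp inside it (7.08, 151 reads), 656 bp apart (chr16:68737301-68738597). The desmosomal cadherin gene DSC2 had summits 809 bp (5.20) and 421 bp (8.02) inside its high-coordinate end, and 352 and 740 bases upstream of the nearest start, which is internal to the gene. The splicing factor gene ESRP2 had them 1109 bp (3.64) and 701 bp (3.47) outside its high-coordinate end.

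Of 20 squamous genes 2 had a displaced pair. SOX2, the stem cell factor gene, had summits 477 bases (normoxia, fold 4.76) and 1212 bases (hypoxia, 4.98) downstream of its start. KRT16, a keratin gene with near-identical copies whose reads are uncertain, had them 475 bp outside (3.62) and 126 bp inside (4.24) its high-coordinate end. Of 23 histone acetylation genes and readers 2 did: HAT1, an H4 acetyltransferase gene, with summits 328 (3.75) and 695 (4.23) bases upstream of its start, and HDAC3, a deacetylase gene, with summits 326 (3.67) and 789 bp (4.76) outside its high-coordinate end. The HDAC3 region lies next to the start of RELL2, and to which gene it belongs cannot be told apart. Of 20 cell cycle genes 2 did: the kinase gene CDK6, with summits 109 (2.98) and 822 (3.37) bases downstream, and CCND1, the cyclin D1 gene, with low folds of 1.46 and 1.55. The CCND1 summits had many reads, 303 in normoxia and 380 in hypoxia, so the low folds go with a high local background. This pair lies in the same stretch of chromosome 11 as the largest displacement. The counts of 1 to 3 members per list are too small to set beside the 6.59% over all genes with any precision.

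Promoters of displaced and coincident pairs were alike in median CpG content and richer in CpG than promoters at large. In the RefSeq window from 250 bases before to 50 after the start, the promoters nearest to displaced pairs held a median of 29 CpG dinucleotides (quartiles 21 and 36), those of coincident pairs 28 (21 and 36) and all 21156 promoters 21 (7 and 31). Short motifs were searched on both strands, with matches of different motifs free to overlap. The GC box core GGGCGG was found in 74.7% (71.8 to 77.5%) of displaced, 75.8% of width-weighted coincident and 56.6% of all promoters. CCAAT was found in 28.5% (25.6 to 31.5%), 31.4% and 34.4%, and TATAAA in 5.74% (4.32 to 7.46%), 3.995% and 9.51%. Both forms of the hypoxia response element core were found at shares within counting error of those of coincident pairs: ACGTG in 28.4% (25.5 to 31.4%) against 26.9%, with 22.9% of all promoters, and GCGTG in 51.8% (48.5 to 55.1%) against 54.7%, with 42.8% of all. CAGGTG, the E-box form bound by SNAI1 and ZEB1, was found in 19.2% (16.7 to 21.9%), 18.6% and 20.1%. For each motif except TATAAA the width-weighted coincident share lay inside the displaced interval, for CCAAT only just. The TATAAA share of coincident pairs, 3.995%, lay below that of displaced pairs and outside its interval. Without weighting, the coincident share of TATAAA was 4.52%, inside the displaced interval, and that of CCAAT was 38.0%, above its displaced interval.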

How the data were processed

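H4K5ac ChIP-seq of FaDu cells was analysed from 1 deposited peak list per library (build hg38). The submitters' processing notes name MACS2 and SICER, with versions, settings and a possible control not given in the sources used here. The deposited columns, all the authors' values within 1 library, were a score (10 times the −log10 p-value, rounded down), the summit's fold enrichment, −log10 p-value and −log10 q-value, and the summit offset. The X chromosome was not used. Peaks were paired with Python 3.11.15, numpy 2.4.6, pandas 2.3.3 and scipy 1.17.1, and the summit was the peak start plus the offset. Summit reads were solved from fold = (reads + 1) / (background + 1) and a Poisson tail p-value. For 2 hypoxia peaks the p-value was too small to solve. Genes, starts and promoter sequences were RefSeq's (GRCh38.p14). Pairs were assigned the start nearest to the midpoint of their summits. Shares carry exact (Clopper-Pearson) intervals; weighted shares and differences carry symmetric ones. Weighting used joined-width classes of 100 bp up to 2000 bp and, where stated, reads. Alternatives varied the displacement limit, q-value limit, list length, overlap, window, reads and weighting. The pairing was tested on simulated peaks.

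Members, gene lists and rules were chosen with earlier results of these data known. Named were 12 strong gene-start pairs by lower fold, 8 strong pairs by displacement, up to 4 genes per list, 3 pairs on each side of the 300 bp limit and 4 coincident pairs. The result of 1 gene list is not reported here.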

Additional observations from a re-analysis of the deposited data

How the results depend on the processing

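No paired analysis was possible because each condition had 1 library. The number of displaced pairs was 4242. It was 8818 with a limit of 200 bp, 902 with 500 bp, 1837 with both lists limited to a −log10 q-value of at least 10 and 1914 with at least 30 reads at both summits. The gene-end difference from coincident pairs was 0.74 percentage points. It was −5.15 at 200 bp, 10.6 at 500 bp, 3.25 with strong peaks, −1.01 with the hypoxia list cut to the normoxia length, 5.70 with an overlap of at least 50% of the narrower peak, −19.1 weighted to width and −2.31 weighted to width and reads. The gene-start difference of 0.29 points was −5.22, 11.05, 2.58, −1.38, 5.03, −18.3 and −2.68 under the same settings, so neither difference kept 1 direction across settings. The cause was not tested. The median joined width of 924 bp was 753 at 200 bp, 1240 at 500 bp, 1299 with strong peaks, 986 with the shortened hypoxia list, 1001 with the larger overlap and 1181 with at least 30 reads. The straddling share of 52.2% was 40.8% at 200 bp, 64.1% at 500 bp, 56.2% with strong peaks and 58.4% with both summits within 1000 bp of the start. The share with a downstream hypoxia summit stayed below an even split under every setting run, at 43.6 to 46.2%. Of 62 alternative values, 32 stayed inside the interval of the reported value. Settings by reads, by midpoint and without starts on both strands, and the straddling result, were added after the data were seen.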

Other observations

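Beyond the displaced pairs, hypoxia summits lay slightly nearer to gene starts than normoxia summits in every displacement class, with all summit positions pooled. Among displaced gene-start pairs the hypoxia summit was the nearer in 507 of 905 (56.0%, 95% exact binomial interval 52.7 to 59.3%). The share was 62.9% (60.9 to 64.8%) of pairs 51 to 99 bp apart and 55.5% (54.2 to 56.7%) of pairs 1 to 50 bp apart. Over all gene-start pairs it was 6801 of 11796 (57.7%, 56.8 to 58.5%). Not every subset showed this. Of displaced pairs not strong in both lists it was 50.8% (43.4 to 58.1%), and of those with both summits upstream 43.8%. The narrowest peaks, 245 bp in normoxia and 215 bp in hypoxia, differed in the same direction, and their part in the result was not tested.

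The coincident gene-start pairs with the highest lower fold were at LOC102724652 (20.1 in normoxia, 23.8 in hypoxia, summits 42 bp apart), the splicing factor gene U2AF1 (19.9 and 24.1, 25 bp), TSPAN19 (17.8 and 22.6, 22 bp) and ALG10B (16.3 and 21.9, 32 bp). The first 2 have near-identical copies, so their reads are uncertain. Their joined regions were 645 to 875 bp wide, below the 938 bp of the narrowest of the 12 displaced pairs with the highest folds.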
